A study of Mus musculus with 6 samples.

Results

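Thymocytes move through the thymus as they mature, and 9 genes that steer, hold or release them were followed here in CD4+CD8+ double-positive (DP) thymocytes with and without Paxbp1. These genes are Cd69, S1pr1, Klf2, Ccr4, Ccr7, Ccr9, Cxcr4, Cd44 and Itgb7. They were taken by symbol from a table of 22322 mouse genes, and each symbol matched 1 row. All 9 had enough reads to be tested. RNA was sequenced from flow-sorted DP thymocytes of untreated mice aged 4 to 7 weeks, with 3 libraries per genotype. Control mice were Paxbp1fl/fl littermates on the C57BL/6 background, which carry both floxed alleles and no Cre. Paxbp1 cKO mice carried the same floxed alleles with an Lck-cre transgene, in which the promoter of a T cell kinase drives Cre from early thymocyte stages on, so that exon 8 of Paxbp1 is removed. Both sexes were used, and the labels do not say whether a library came from 1 mouse or from pooled mice. The p-values measure the spread between these libraries.

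The route of a thymocyte is set by a few receptors. CXCR4 and CCR9 answer the chemokines CXCL12 and CCL25 of the cortex, where DP cells reside. After positive selection, CCR4 and CCR7 draw cells toward ligands of the medulla. The sphingosine 1-phosphate (S1P) receptor S1PR1 leads mature cells out into the blood. The transcription factor KLF2 is needed for the expression of S1pr1 in mature thymocytes. CD69, which appears on cells signaled through the T cell receptor (TCR), binds S1PR1 and removes it from the cell surface. CD44 binds hyaluronan, and the integrin chain encoded by Itgb7 pairs with the Itga4 or Itgae chain for binding to cell surface ligands.

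The depth ranged from 18963775 to 26252248 counts per library. A single count (1) equalled 0.0388 to 0.0521 CPM, the counts scaled to library size with edgeR's TMM factors. For Paxbp1 itself, control libraries 1, 2 and 3 showed 40.1, 16.3 and 15.5 CPM, and cKO libraries 1, 2 and 3 showed 38.8, 47.1 and 49.6 CPM. The groups overlapped, with an edgeR adjusted p of 0.0977. Counts over the whole gene do not measure the removed exon, so libraries are grouped by their sample titles and every direction rests on those titles. The titles read WT-DP for control and Lck-KO-DP for cKO, and the floxed genotypes given above are those of the study's methods. The DP identity was checked with 10 genes. All 10, among them Cd4, Cd8a, Cd8b1, Rag1, Rag2, Dntt, Arpp21, Ptcra and Themis, were detected in every library, with a summed level of 11012 to 12888 CPM in control and 8272 to 9780 CPM in cKO libraries. Of these, Rag1 and Cd8b1 fell, where 5.89% of all tested genes did. All 10 had a log2 fold change below 0, with a median of -0.34, against -0.0017 over all tested genes. At an unadjusted p below 0.05 in edgeR, 5 of the 10 were lower, where 14.6% of all tested genes were. Markers of macrophages were present at a low summed level in both groups, 29.6 to 54.7 CPM in control and 75.0 to 99.9 CPM in cKO libraries. Of 20 macrophage markers 13 were tested and 6 of them rose, where 4.47% of all tested genes did. Mertk and Marco were at 0 in every library. Adgre1, a defining marker, was at 0 counts in all 3 control libraries, which allows up to 0.116 to 0.156 CPM per library, and at 2.19 to 2.40 CPM in the cKO libraries. The part of other cells in the results below was not tested unless a value is given.

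Per unit of transcript length, the genes differed widely in level. In the deposited FPKM values (fragments scaled to transcript length and library size), Ccr9 was the most abundant of the 9 in control cells at 483 ± 59.3 FPKM (mean ± S.D., n = 3). Cd69 followed at 104 ± 25.2 FPKM. Klf2 was at 29.3 ± 10.1 and Cxcr4 at 20.8 ± 5.80 FPKM, and the libraries of these neighbors overlapped. Itgb7 at 10.5 ± 1.19 FPKM and Ccr7 at 10.2 ± 3.40 FPKM also overlapped. Ccr4 was at 4.45 ± 1.70 FPKM, Cd44 at 2.61 ± 1.07 FPKM and S1pr1 at 1.64 ± 0.204 FPKM, and each of these overlapped the next. Other neighbors in the order were apart. The gene of a cortical receptor and the retention gene thus led the order, with the egress receptor gene at its end. In cKO cells the libraries of Ccr9 (401 ± 60.5 FPKM) and Cd69 (280 ± 155 FPKM) overlapped, and Cxcr4 (24.3 ± 4.10 FPKM) was ranked above Klf2 (19.5 ± 12.8 FPKM), also with overlap.

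Promoter sequences are shown for the most abundant receptor gene (Ccr9), for the transcription factor (Klf2) and for the gene whose groups did not overlap (Itgb7). Each is the stretch of 250 bases before the gene's start in RefSeq on GRCm38.p6, printed in the direction of transcription. The RefSeq starts differ from the outer gene bounds of GENCODE given with each gene below, so that the stretch of Ccr9 lies inside those bounds and those of Klf2 and Itgb7 run a short way into them. Entries were found for 6 of the 9 genes. The capitals mark CACCC or its reverse complement GGGTG, the core of the motif that KLF factors bind, searched on both strands. The stretch of Ccr9 is chr9:123766961-123767210 on the plus strand, that of Klf2 chr8:72318812-72319061 on the plus strand, and that of Itgb7 chr15:102231936-102232185 on the minus strand.
Ccr9: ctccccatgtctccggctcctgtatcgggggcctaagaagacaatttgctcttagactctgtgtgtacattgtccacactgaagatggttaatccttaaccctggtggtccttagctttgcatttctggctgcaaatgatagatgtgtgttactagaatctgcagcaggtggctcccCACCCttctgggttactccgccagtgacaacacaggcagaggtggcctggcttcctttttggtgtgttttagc
Klf2: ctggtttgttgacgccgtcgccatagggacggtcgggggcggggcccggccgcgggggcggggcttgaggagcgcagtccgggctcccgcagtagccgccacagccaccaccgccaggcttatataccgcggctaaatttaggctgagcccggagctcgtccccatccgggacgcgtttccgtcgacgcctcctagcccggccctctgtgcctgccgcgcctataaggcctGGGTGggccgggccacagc
Itgb7: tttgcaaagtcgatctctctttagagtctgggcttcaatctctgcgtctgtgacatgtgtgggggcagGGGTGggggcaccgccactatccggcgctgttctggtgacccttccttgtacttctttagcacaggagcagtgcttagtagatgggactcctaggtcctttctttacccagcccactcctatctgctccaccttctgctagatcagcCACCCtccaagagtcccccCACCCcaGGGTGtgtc
The KLF core was found 4 times before Itgb7 and 1 time each before Klf2, Ccr9, Ccr4 and Cxcr4, with 0 matches before Cd44. Of 32851 promoters of this length in the table, 52.0% held it at least once and 2.14% held it 4 or more times. The E-box CANNTG, bound by E proteins of thymocytes, was found 2 times before Ccr9, 2 times before Ccr4 and 1 time before Itgb7, against 66.2% of all promoters. An AP-1 motif, TGANTCA, was found before Ccr4 only among the 6, against 6.75% of all promoters. The FOXO motif GTAAACA, held by 3.17% of all promoters, was found in none of the 6. These motifs do not share letters in these stretches except where the E-box and the KLF core meet before Ccr4. A match describes letters and not a bound site.

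The genotypes were set against each other with the quasi-likelihood test of edgeR, with Benjamini-Hochberg adjustment over 11488 tested genes. Cd69 rose in the cKO libraries, and the other 8 genes did not pass an adjusted p of 0.05. This was 1 gene of 9, where 10.4% of all tested genes passed. In the higher direction 4.47% of all tested genes passed, and in the lower direction, in which 0 of the 9 genes passed, 5.89% did. DESeq2 and limma-voom also called 1 gene higher and 0 lower. At an unadjusted p below 0.05, 1 of the 9 was higher and 1, Itgb7, was lower, shares near those of all tested genes (13.3% higher and 14.6% lower). The 9 genes had a median log2 fold change of -0.29, and all tested genes had -0.0017. In this bulk measurement, a change in RNA per cell and a change in the share of cells that hold the RNA cannot be told apart.

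**Figure D1:**
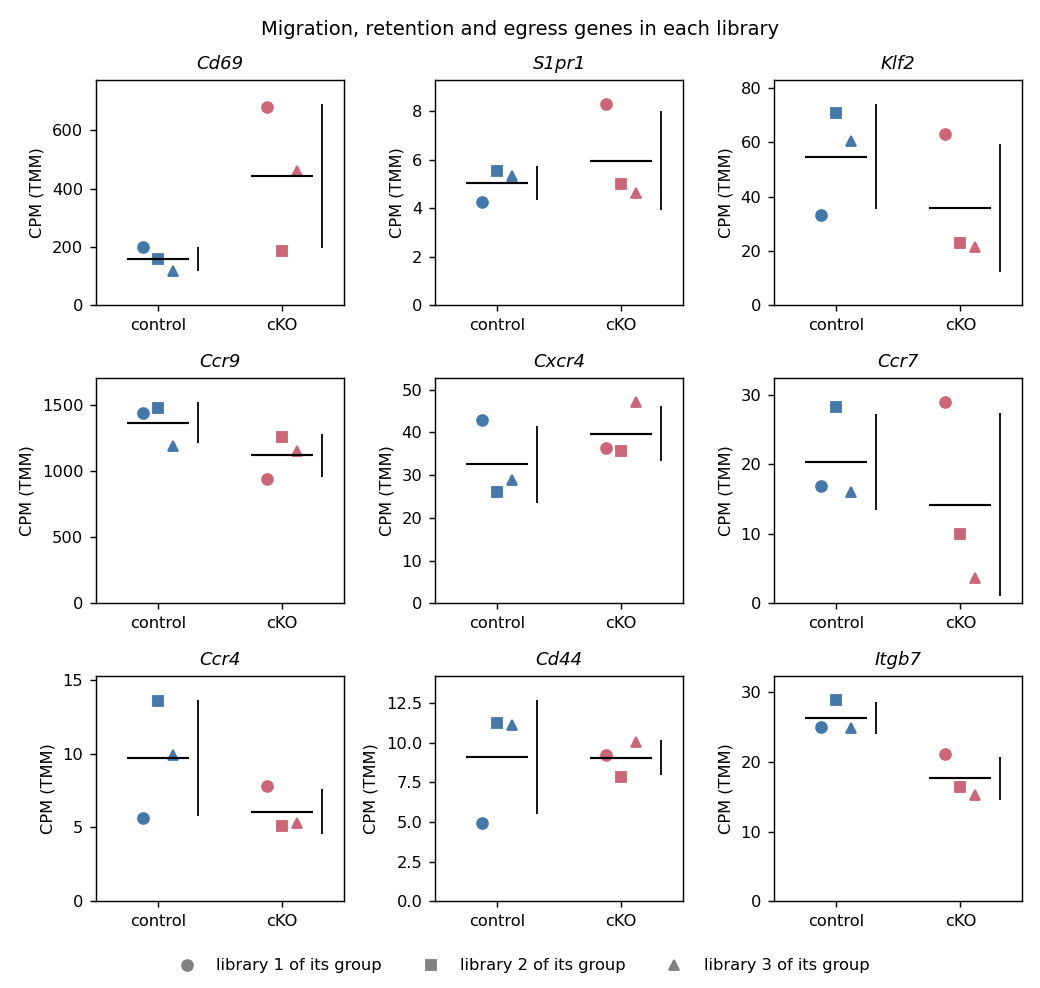
Level of each of the 9 genes in every library, in CPM on linear axes that start at 0, with symbols for library 1, 2 and 3 of each group, a horizontal line at the mean and a vertical line of 1 S.D. on each side (n = 3). Itgb7 is the gene whose groups are apart, and cKO library 1 lies above the other cKO libraries for Cd69, S1pr1, Klf2, Ccr7, Ccr4 and Itgb7.

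Cd69 (ENSMUSG00000030156, chromosome 6 of GRCm38 from 129267325 to 129275436, minus strand) had 201, 159 and 119 CPM in control libraries 1, 2 and 3 and 681, 187 and 460 CPM in cKO libraries 1, 2 and 3. Libraries 1 and 3 of the cKO group were above every control library, while cKO library 2 lay below control library 1. The mean was 159 ± 40.9 CPM in control and 443 ± 247 CPM in cKO libraries (± S.D., n = 3 each), a ratio of 2.78. The log2 fold change was 1.47 (standard error 0.37, 95% interval 0.65 to 2.30, edgeR adjusted p = 0.0344). The call depended on single libraries. It was lost with cKO library 1 left out (1.02, edgeR adjusted p = 0.124) and with cKO library 3 left out (1.44, edgeR adjusted p = 0.122). It was also lost without control library 2 or 3, at 1.47 and 1.30 (edgeR adjusted p = 0.0988 and 0.0943). It held without control library 1, at 1.67 (edgeR adjusted p = 0.0261), and without cKO library 2, the library within the control range, at 1.84 (edgeR adjusted p = 0.0104). For DP cells of these genotypes the paper reports, from flow cytometry, that CD69 expression was unaltered. Flow cytometry measured protein, while the values here are RNA.

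Other genes that answer TCR signals were read beside Cd69, from a list of 12 of which 11 were tested. Nr4a1, an immediate early nuclear receptor gene, had 373 to 607 CPM in the control libraries and 2141, 871 and 1560 CPM in cKO libraries 1, 2 and 3, the same order within the cKO group as for Cd69. It rose with 1.62 on the log2 scale (edgeR adjusted p = 0.00930), and Nr4a3 rose with 2.34 (edgeR adjusted p = 0.0183). Id3, an inhibitor of E proteins, fell by 1.11 on the log2 scale (edgeR adjusted p = 0.00349). The other 8 did not pass, among them Egr1 with 0.20, Egr2 with -0.67 and Cd5 with -0.0058. The list therefore did not move in a single direction, and its median log2 fold change was -0.0058. Its summed level was 2019 to 2260 CPM in control libraries and 3669, 2238 and 2948 CPM in cKO libraries 1, 2 and 3, most of it from Nr4a1 in cKO library 1. In this list 27.3% of the tested genes passed, against 10.4% of all tested genes.

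S1pr1 (ENSMUSG00000045092, chromosome 3 from 115710433 to 115715072), the egress receptor gene, was low in all libraries. It had 4.25, 5.55 and 5.32 CPM in control libraries 1, 2 and 3 and 8.31, 4.999 and 4.62 CPM in cKO libraries 1, 2 and 3. The groups overlapped, and cKO library 1 was the highest of the 6. Its log2 fold change was 0.24 (95% interval -0.51 to 0.997, edgeR adjusted p = 0.693), and without cKO library 1 it was -0.07. The lowest count was 82 (exact Poisson interval 65.2 to 102, which covers counting error only). At the mean count of each group, counting alone gives a coefficient of variation of 9.58% in control and 8.91% in cKO libraries, and the observed values were 13.7% and 34.0%.

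Klf2 (ENSMUSG00000055148, chromosome 8 from 72319033 to 72321656), the gene of the factor upstream of S1pr1, had 33.2, 70.6 and 60.2 CPM in control libraries 1, 2 and 3. In cKO libraries 1, 2 and 3 it had 62.8, 22.9 and 21.7 CPM. Libraries 2 and 3 of the cKO group lay below every control library, and cKO library 1 lay within the control range. For Klf2 the log2 fold change was -0.61 (95% interval -1.50 to 0.27, edgeR adjusted p = 0.355). Without cKO library 1 it was -1.30 (edgeR adjusted p = 0.0529), and without cKO library 3 it was -0.35 (edgeR adjusted p = 0.695). Foxo1, whose product activates Klf2 in T cells, rose from 103 ± 13.6 to 153 ± 24.2 CPM (± S.D., n = 3 each), or by 0.58 on the log2 scale (edgeR adjusted p = 0.0366). The call of Foxo1 was lost in 4 of the 6 fits with 1 library left out (edgeR adjusted p up to 0.164).

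The genes of both receptors for cortical chemokines had overlapping groups and did not pass. Ccr9 (ENSMUSG00000029530, chromosome 9 from 123678439 to 123784330) had 1442, 1477 and 1190 CPM in control libraries 1, 2 and 3 and 940, 1263 and 1158 CPM in cKO libraries 1, 2 and 3. The 2 lowest values were from cKO libraries and the 2 highest from control libraries, with overlap between them. For Ccr9 the log2 fold change was -0.29 (95% interval -0.59 to 0.01, edgeR adjusted p = 0.198), and -0.18 without cKO library 1 (edgeR adjusted p = 0.470). The annotated exons of Ccr9 share 2201 of 10260 bases with other genes, most of them on the other strand, and the sources used here do not give whether counting used strand. Cxcr4 (ENSMUSG00000045382, chromosome 1 from 128588199 to 128592293) had 42.8, 26.0 and 28.8 CPM in control libraries 1, 2 and 3. In cKO libraries 1, 2 and 3 it had 36.2, 35.7 and 47.1 CPM. Control library 1 was above the 2 lower cKO libraries, and the log2 fold change was 0.29 (95% interval -0.18 to 0.76, edgeR adjusted p = 0.415). It was 0.53 without control library 1 (edgeR adjusted p = 0.0647) and 0.14 without cKO library 3 (edgeR adjusted p = 0.792). Ccl25, the ligand gene of CCR9, was at 5.28 to 5.97 CPM in control and 6.76 to 11.03 CPM in cKO libraries, with 0.68 on the log2 scale (edgeR adjusted p = 0.146). Cxcl12, the ligand gene of CXCR4, had 0 counts in all 6 libraries.

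The genes of both receptors for medullary ligands also had overlapping groups, and Ccr7 had the widest spread of the 9 genes within the cKO group. Ccr7 (ENSMUSG00000037944, chromosome 11 from 99144196 to 99155077) had 16.9, 28.3 and 16.0 CPM in control libraries 1, 2 and 3 and 29.0, 9.95 and 3.69 CPM in cKO libraries 1, 2 and 3. Library 1 of the cKO group was the highest of all 6 and cKO library 3 the lowest, a span of 7.85 times within that group. That spread, a coefficient of variation of 92.7%, was 16.1 times what counting alone gives. For Ccr7 the log2 fold change was -0.52 (95% interval -1.76 to 0.73, edgeR adjusted p = 0.601). It moved to -1.58 without cKO library 1 (edgeR adjusted p = 0.0827) and to -0.06 without cKO library 3 (edgeR adjusted p = 0.954). Ccr4 (ENSMUSG00000047898, chromosome 9 from 114490316 to 114504916) had 5.65, 13.5 and 9.90 CPM in control libraries 1, 2 and 3. In cKO libraries 1, 2 and 3 it had 7.81, 5.10 and 5.31 CPM. Control library 1 lay among the cKO libraries, and the log2 fold change was -0.67 (95% interval -1.45 to 0.10, edgeR adjusted p = 0.242). Without control library 1 it was -0.95 (edgeR adjusted p = 0.0594), and without control library 2 it was -0.36 (edgeR adjusted p = 0.632).

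Of the adhesion genes, Itgb7 (ENSMUSG00000001281, chromosome 15 from 102215995 to 102231944, minus strand) had 25.003, 28.8 and 24.8 CPM in control libraries 1, 2 and 3 and 21.1, 16.4 and 15.3 CPM in cKO libraries 1, 2 and 3. Every cKO library was below every control library. It was the 1 gene of 9 whose groups did not overlap, where this held for 33.0% of all tested genes. The mean was 26.2 ± 2.29 CPM in control and 17.6 ± 3.08 CPM in cKO libraries (mean ± S.D., n = 3 each). The fitted log2 fold change was -0.57 (standard error 0.19, 95% interval -0.99 to -0.16). It missed the threshold after adjustment over all genes (edgeR adjusted p = 0.0773, unadjusted 0.0116). Over all settings tried it stayed between -0.73 and -0.48. Its partner chain gene Itga4 was at 99.8 ± 14.0 CPM in control and 97.8 ± 5.97 CPM in cKO libraries (mean ± S.D., n = 3 each; log2 fold change -0.03, edgeR adjusted p = 0.916). Itgae, the other partner, was at 1.55 to 2.57 CPM in control and 0.183 to 1.48 CPM in cKO libraries and did not pass (log2 fold change -1.03, edgeR adjusted p = 0.410). Cd44 (ENSMUSG00000005087, chromosome 2 from 102811141 to 102901665) had 4.93, 11.3 and 11.1 CPM in control libraries 1, 2 and 3 and 9.22, 7.86 and 10.1 CPM in cKO libraries 1, 2 and 3. Its cKO libraries all lay within the control range, and the log2 fold change was -0.01 (95% interval -0.73 to 0.71, edgeR adjusted p = 0.990), with a sign that changed under other scalings of the libraries.

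**Figure D2:**
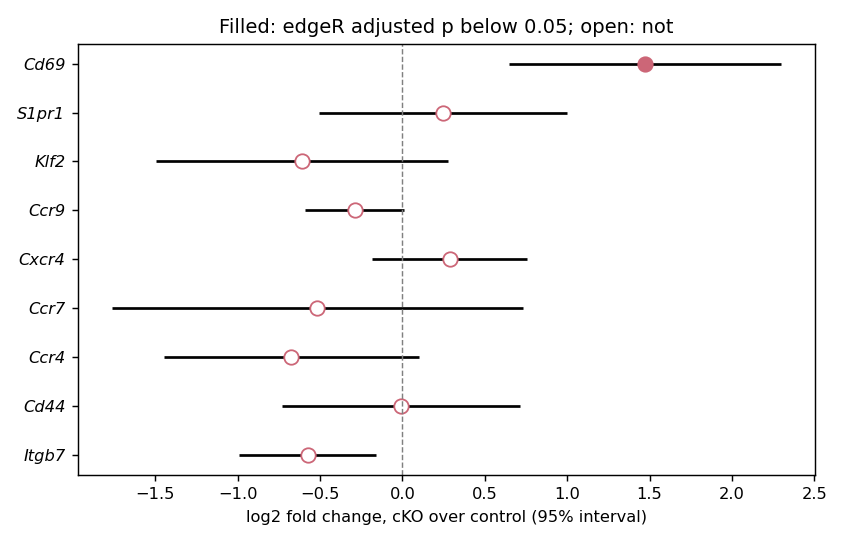
Log2 fold change of the 9 genes, cKO over control, from edgeR with all 6 libraries, where lines are 95% intervals and a filled point marks an adjusted p below 0.05. Cd69 at 1.47 has the filled point, and the interval of Itgb7, from -0.99 to -0.16, also lies on one side of 0.

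The spread within the groups set how much could be read from these genes. The coefficient of variation over all tested genes had a median of 16.3% in control and 13.3% in cKO libraries. In the cKO group it was 92.7% for Ccr7, 65.5% for Klf2, 55.8% for Cd69 and 34.0% for S1pr1. In the same group Itgb7, Cxcr4, Ccr9 and Cd44 were at 12.3% to 17.5%, and Ccr4 was at 24.8%. In the control group it was 40.6% for Ccr4, 39.7% for Cd44, 35.3% for Klf2, 33.7% for Ccr7, 27.8% for Cxcr4 and 25.6% for Cd69. S1pr1, Ccr9 and Itgb7 were at 8.72% to 13.7% there, below the median. Library 1 of the cKO group was the highest of its group for 6 of the 9 genes, which were Cd69, S1pr1, Klf2, Ccr4, Ccr7 and Itgb7. Markers of mature single-positive T cells (12 genes, 9 of them tested, without the 9 genes above) were not raised in that library as a summed level. Their summed level was 368 CPM in cKO library 1, against 392 and 345 CPM in cKO libraries 2 and 3 and 414 to 651 CPM in control libraries. Of the 9 tested markers, 3 had a log2 fold change above 0 and 6 below it. At an unadjusted p below 0.05 in edgeR, 1 was higher and 2 lower, against 13.3% and 14.6% of all tested genes. After adjustment 1 passed, Cd52, which fell by 1.77 on the log2 scale (edgeR adjusted p = 0.00392), against 5.89% of all tested genes. Zbtb7b, which defines the CD4 lineage, was at 0 counts in every library. Il7r of this list, too scarce to be tested, was at 1.05, 0.208 and 0.138 CPM in cKO libraries 1, 2 and 3 and at 0.116 to 1.65 CPM in control libraries. Control library 2 was the highest of its group for 7 of the 9 genes, and it also had the highest summed level of the mature T cell markers, 651 CPM. What part mature cells had in the levels of Klf2, Ccr7 and S1pr1 was not tested.

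**Figure D3:**
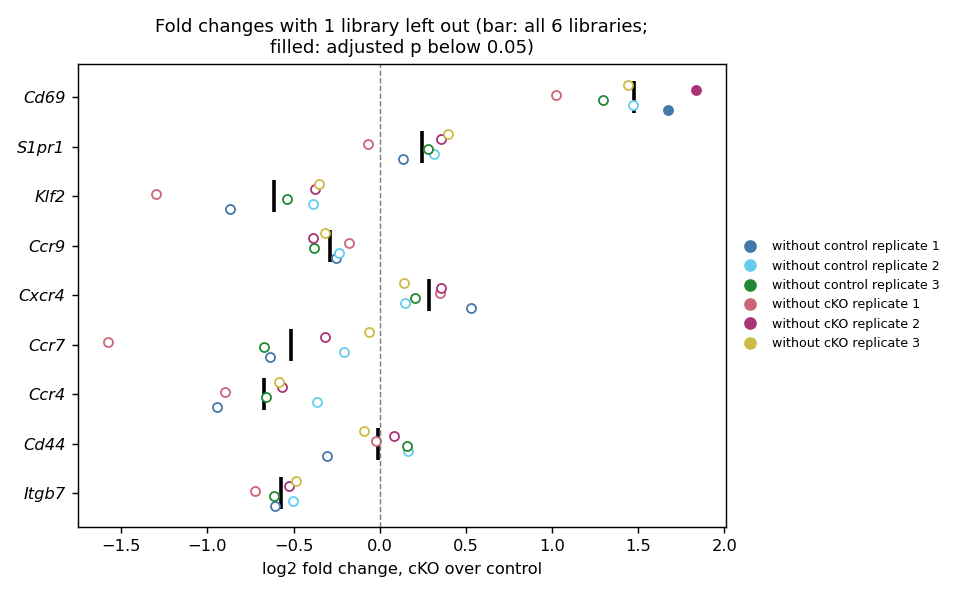
Log2 fold change of the 9 genes when 1 library is left out in turn, with a color for each library, a black bar at the value with all 6 libraries and filled points at an adjusted p below 0.05. Cd69 keeps its call without control library 1 or cKO library 2, and Ccr7 and Klf2 move most without cKO library 1, to -1.58 and -1.30.

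For each gene, the gene most like it over the 6 libraries was taken from 9196 tested genes with a mean of at least 5 CPM, by Pearson's r of log2 CPM. Each r is the highest among 9196 genes over only 6 libraries, and these libraries share the split by genotype. It was thus selected to be high and is a description. The match was Map3k14 for Cd69 (r = 0.994), Mrpl17 for S1pr1 (r = 0.986) and Riok3 for Klf2 (r = 0.996). It was Ebp for Ccr4 (r = 0.992), Irak4 for Ccr7 (r = 0.992), Wdsub1 for Ccr9 (r = 0.994) and Zzz3 for Cxcr4 (r = 0.9998). For Cd44 it was Hax1 (r = 0.995), and for Itgb7 it was Tbx19 (r = 0.998). Tbx19, a T-box transcription factor gene, was the match that passed the test, with 9.89 ± 2.52 CPM in control and 3.38 ± 1.54 CPM in cKO libraries (mean ± S.D., n = 3 each; log2 fold change -1.54, edgeR adjusted p = 0.0302). A match to Itgb7, whose groups did not overlap, favors a gene that differs between the groups, so this pass is part of the description.

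The wider machinery of migration was read from 8 lists. Of 114 other genes in these, 92 were tested, 4 rose and 17 fell, so that 22.8% passed where 10.4% of all tested genes did. With a filter at a mean of 5 CPM, 20 of 71 passed, against 14.4% of all tested genes. The lists were chosen with earlier results of these data known, so these shares are a description. Groups without overlap were found for 47.8% of the 92, against 33.0% of all tested genes. Their median log2 fold change was -0.15. With cKO library 3 left out, 0 of these genes passed, as then did 1.02% of all genes. With control library 2, control library 3, cKO library 1 or cKO library 2 left out, 7, 10, 8 and 12 of the 21 genes still passed, and without control library 1 there were 19. At an unadjusted p below 0.05, 10 of the 92 were higher and 32 lower, against 13.3% and 14.6% of all tested genes, so that the higher side was below the background share. Plxnd1 lost its call in each of the 6 fits with 1 library left out, and Sema7a, Ptger4, Coro1a, Skap1, Rac2 and Grk6 in 5 of 6. Klf6, Foxo1, Icam2 and Fermt3 lost theirs in 4 of 6. Other settings also ended the calls of Plxnd1 (total counts alone, edgeR adjusted p = 0.0565), Sema7a (total counts alone, edgeR adjusted p = 0.0510, and limma-voom, 0.0538) and Coro1a (RLE factors, edgeR adjusted p = 0.0515).

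**Figure D4:**
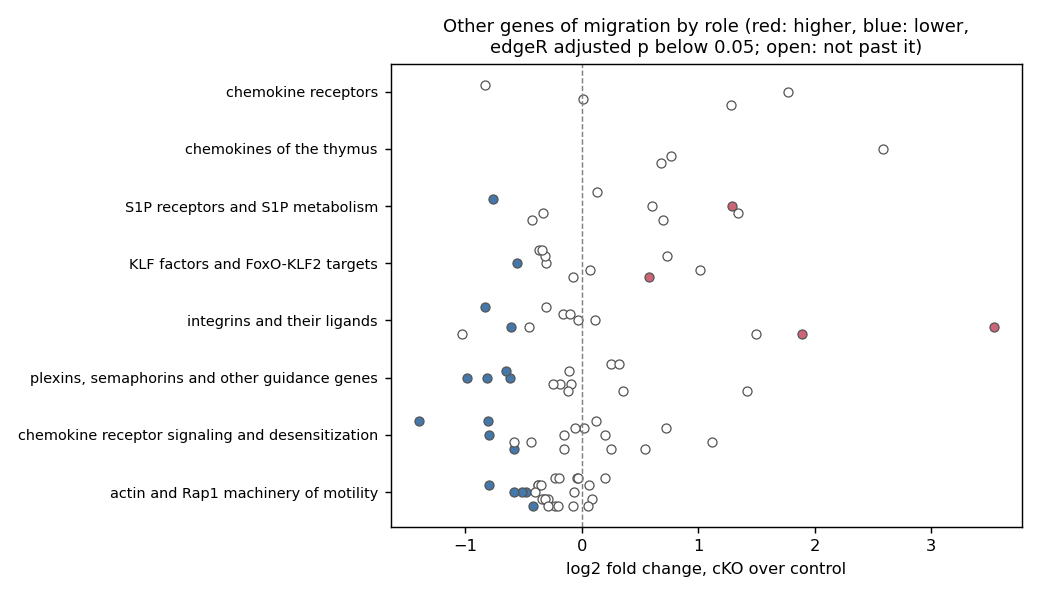
Log2 fold change, cKO over control, of each tested gene in 8 lists of other migration genes, where red points rose and blue points fell at an edgeR adjusted p below 0.05 and open points did not pass. The actin and Rap1 list and the chemokine receptor signaling list hold 5 and 4 blue points and no red point. Over all tested genes 5.89% fell and 4.47% rose.

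Among the signaling genes downstream of chemokine receptors, all 16 were tested, 4 fell and 0 rose. Over all tested genes, 5.89% fell and 4.47% rose. Gnai2, a G protein subunit through which chemokine receptors signal, fell from 230 ± 92.7 to 87.5 ± 8.14 CPM (± S.D., n = 3 each), with -1.39 on the log2 scale (edgeR adjusted p = 0.0113). Control library 1, at 127 CPM, was much nearer to the cKO libraries than control libraries 2 and 3, at 256 and 306 CPM. Gnai3, another G protein subunit gene of this list, was more abundant, at 494 ± 22.2 CPM in control and 445 ± 28.2 CPM in cKO libraries. Its groups overlapped and it did not pass (log2 fold change -0.15, edgeR adjusted p = 0.390). Arhgef1, an exchange factor activated by G proteins, fell from 728 ± 33.3 to 486 ± 23.2 CPM (± S.D., n = 3 each; log2 fold change -0.58, edgeR adjusted p = 0.00938). Grk6, a kinase that desensitizes receptors, had -0.80 and Rgs14, which limits G protein signaling, had -0.79 on the log2 scale (edgeR adjusted p = 0.0348 and 0.00938). Grk2, the other main receptor kinase of lymphocytes, had -0.15 and did not pass (edgeR adjusted p = 0.421).

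Of 26 genes for actin and Rap1 control, all tested, 5 fell and 0 rose, where 5.89% of all tested genes fell and 4.47% rose. Dock2, the Rac activator used by migrating lymphocytes, fell from 295 ± 46.3 to 170 ± 28.5 CPM (± S.D., n = 3 each), with -0.80 on the log2 scale (edgeR adjusted p = 0.0135). Rac2, its hematopoietic target, had -0.58 (edgeR adjusted p = 0.0183). Coro1a, an actin regulator needed for thymic egress, had -0.48, and Fermt3, which activates integrins, had -0.52 (edgeR adjusted p = 0.0477 and 0.0173). Skap1, an adaptor for integrin activation, had -0.42 (edgeR adjusted p = 0.0450). The remaining 21 did not pass.

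Integrin genes and their ligands went in both directions, with 2 that rose and 2 that fell among 12 tested. Over all tested genes, 4.47% rose and 5.89% fell. Itgb2, the beta chain of LFA-1, fell from 345 ± 49.8 to 194 ± 21.3 CPM (± S.D., n = 3 each; log2 fold change -0.83, edgeR adjusted p = 0.00825). Itgal, its alpha chain, had -0.46 and did not pass (edgeR adjusted p = 0.0599). Among the ligands of LFA-1, Icam2 fell (log2 fold change -0.61, edgeR adjusted p = 0.0276) and Icam1 rose. Icam1 was at 21.3 to 25.6 CPM in control libraries and at 94.3, 34.9 and 135 CPM in cKO libraries 1, 2 and 3, with 1.89 on the log2 scale (edgeR adjusted p = 0.0146), so that cKO library 2 was again the nearest to the controls. Vcam1 also rose, with 0.194 to 0.519 CPM in control and 3.49 to 4.94 CPM in cKO libraries (log2 fold change 3.54, edgeR adjusted p = 0.00825). It is also on the macrophage list, whose summed level was higher in every cKO library than in any control library.

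S1P receptor genes other than S1pr1 changed in opposite directions. S1pr2, whose product restrains migration, was at 10.4 to 18.1 CPM in control and 22.9 to 37.8 CPM in cKO libraries and rose with 1.29 on the log2 scale (edgeR adjusted p = 0.0165). S1pr4 was at 46.7 to 52.4 CPM in control and 23.9 to 34.5 CPM in cKO libraries and fell by 0.77 on the log2 scale (edgeR adjusted p = 0.0200). The groups were apart for both. The other 6 tested genes of S1P receptors and metabolism did not pass, and S1pr5 had 0 counts in all libraries. In the list of KLF factors and FoxO or KLF2 targets, Klf6 fell (log2 fold change -0.56, edgeR adjusted p = 0.0432) and Foxo1 rose, while 8 other tested genes did not pass, among them Klf13 with -0.37 (edgeR adjusted p = 0.0585) and Klf10 with 0.73 (edgeR adjusted p = 0.0942). Of the tested genes, 25% passed in the S1P list and 20% in the KLF list, against 10.4% of all tested genes.

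Of 13 tested genes for plexins, semaphorins and other guidance receptors or ligands, 4 fell and 0 rose. Over all tested genes, 5.89% fell and 4.47% rose. Plxnd1, a plexin that guides thymocytes from cortex to medulla, had -0.61 and Sema7a, a semaphorin gene, had -0.99 on the log2 scale (edgeR adjusted p = 0.0451 and 0.0466). Ptger4, a prostaglandin receptor gene, had -0.65, and Lpar6, a receptor gene for lysophosphatidic acid, had -0.82 (edgeR adjusted p = 0.0357 and 0.0282). Other chemokine receptor genes were scarce, with a summed level of 3.34 to 8.20 CPM in control and 5.21 to 10.9 CPM in cKO libraries over 10 genes. Only 4 of them could be tested and 0 passed in edgeR, with 1 at an unadjusted p below 0.05 where 27.9% of all tested genes were, and Ccr2 was among the most abundant (log2 fold change 1.28, edgeR adjusted p = 0.155). Of 9 thymic chemokine genes 3 were tested and 0 passed in edgeR, with 2 at an unadjusted p below 0.05 (27.9% of all tested genes). These 2 were Ccl25 and Ccl5, the latter at 0 to 0.771 CPM in control and 1.09 to 4.02 CPM in cKO libraries. Ccl5 had 2.59 on the log2 scale (edgeR adjusted p = 0.142). Ccl4, also tested, had 0.77 (edgeR adjusted p = 0.437) and overlapping groups.

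Among all tested genes, 4.47% rose and 5.89% fell, the shares to set beside the counts of marker genes that follow. For double-negative and immature single-positive thymocytes, 4 of 9 tested genes rose (Il2ra, Hes1, Dtx1 and Mpzl2) and 0 fell. Their summed level over 10 genes was 174 to 202 CPM in control and 288 to 325 CPM in cKO libraries, with Erg at 0. Dendritic cell markers summed to 3.75 to 4.70 CPM and 7.49 to 10.2 CPM over 10 genes, with 0 of 4 tested past the threshold and Clec9a at 0. B cell markers summed to 948 to 1299 CPM and 871 to 911 CPM over 8 genes, nearly all of it from Ighm, and 1 of 3 tested, Cd79b, fell. For thymic epithelial cells the ranges were 32.9 to 36.7 CPM and 26.5 to 33.4 CPM over 10 genes, with Krt5 at 0, and 1 of 5 tested, Cldn4, fell. Markers of NK and innate T cells summed to 5.24 to 17.3 CPM and 6.88 to 10.8 CPM over 9 genes, with 0 of 3 past the threshold and Klrb1c at 0. Erythroid markers summed to 28.2 to 141 CPM and 1.92 to 49.2 CPM over 8 genes, with 0 of 5 past the threshold. Neutrophil markers reached at most 0.312 CPM in any library, and 0 of 8 could be tested. In the lists of dendritic, NK and erythroid markers, 0 genes had an unadjusted p below 0.05.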

How the data were processed

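RNA from sorted DP thymocytes was sequenced in 3 control and 3 Paxbp1 cKO libraries, grouped by the sample titles. The authors deposited read counts per gene, without normalization, and FPKM values, which the authors scaled by gene length and library size. The submitters' processing notes name fastp 0.18.0, Bowtie2 2.2.8, HISAT2, StringTie and RSEM without their roles. Genome build and annotation: not given in the sources used here. Deposited fold changes, p-values and group means of the authors' own comparison, for which the study's methods name DESeq2, were not used. The methods name a cDNA pre-amplification kit, the labels another kit.

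The test was run in edgeR 4.0.16 under R 4.3.3 (filterByExpr, at least 10 counts and 15 in total, TMM, quasi-likelihood test, genotype as the only term). This left 11488 of 15349 genes with a count. A gene passed at an adjusted p below 0.05. Standard errors are the log2 fold change divided by the root of its F statistic. FPKM were used for levels between genes and not tested. Positions are from GENCODE M21 on GRCm38, matched by Ensembl identifier. Chi-square over degrees of freedom between libraries of a group was 19.7 to 68.0, above sampling noise, so none was a duplicate. On simulated counts for this comparison (11300 genes, 200 changed), 68 of 97 genes changed by 1 on the log2 scale and 92 of 103 changed by 2 were called, with 17 unchanged genes.

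The members and lists were chosen with earlier results of these data known. Named were the 9 genes, each other migration gene that passed, the 2 most abundant of lists where none passed, and the gene most like each member. Some genes of these lists, counted with their list, are not reported here. Marker genes, Klf10, Klf13, Grk2, Gnai3, Itgal, Itga4, Itgae and the chemokine genes Cxcl12 and Ccl5 were added after their values were seen. The alternatives were DESeq2 1.42.0, limma-voom (limma 3.58.1), RLE factors, total counts, other filters, the replicate number as a term and leaving out each library.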

Additional observations from a re-analysis of the deposited data

How the results depend on the processing

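At an absolute log2 fold change above 1 with an adjusted p below 0.05, 176 genes were higher and 141 lower in the cKO libraries. Under the 7 alternatives that keep all libraries these counts lay between 151 and 262 and between 121 and 168, the 1 call among the 9 genes (Cd69) held, and 15 to 24 other migration genes fell and 3 to 6 rose. With 1 library left out, the genes past the threshold ranged from 28 to 270 higher and from 45 to 184 lower. Of the 9 genes, 0 to 1 were then called higher and 0 lower. Of the other migration genes, 0 to 5 were called higher and 0 to 22 lower. The lowest counts came without cKO library 3, and the highest counts of genes past the threshold without control library 1. The log2 fold change of Cd44, -0.0091 with all libraries, changed sign under DESeq2 (0.0016), limma-voom (0.055), RLE factors (0.0014), total counts alone (0.015), a filter at a mean of 5 CPM (0.0069) and the replicate block (0.069). It ranged from -0.31 to 0.17 with 1 library left out, and that of S1pr1 from -0.069 to 0.40, below 0 without cKO library 1. The cause was not tested. Same-numbered libraries of the groups did not deviate together (correlations of 0.045, 0.038 and -0.030), so the numbers were not taken to pair them. With the replicate block, 1238 genes had an adjusted p below 0.05 against 1191, Cd69 stayed called (log2 fold change 1.33, adjusted p = 0.0286), and 25 other migration genes passed against 21, of which 20 were shared and Ptger4 was lost (adjusted p = 0.0582). A filter at 5 CPM left no value for Vcam1.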
